A study of Mus musculus with 8 samples.

Results

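The cytosolic ribosomal protein genes are the genes that encode the protein parts of the ribosome outside mitochondria. They were chosen here by symbol: every gene of the count table whose mouse symbol starts with Rpl, Rps or Rplp and goes on with a digit, leaving out the kinases of the Rps6k series and symbols that mark pseudogenes. This gave 85 genes of the 27554 in the table, of which 75 had enough counts to be tested. Of the 85, 48 belong to the large subunit, 32 to the small subunit and 3 to the stalk. Another 2, Rpl7l1 and Rps19bp1, carry such a symbol but are not structural parts of the ribosome: the first is a paralog of Rpl7 and the second encodes a protein that binds Rps19. Rpsa, Fau and Rack1 encode ribosomal proteins under other symbols and were handled as a separate list. That list holds 4 genes, of which these 3 were tested.

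The cells were muscle stem cells sorted by flow cytometry from the skeletal muscle of the hindlimb. All mice carried the same pair of knock-in reporters on a C57BL/6NTac background, the alleles Pax7tm3955 and Myf5tm3956, so that ZsGreen follows the stem cell transcription factor Pax7 and E2Crimson follows Myf5, a myogenic transcription factor. Cells positive for Pax7 were divided at the top and the bottom of the E2Crimson range into Myf5High and Myf5Low, in female and in male mice, with no treatment. The ages of the mice are not given in the sources used here. Each of the 4 groups had 2 libraries, each made from a pool of 4 mice. The Myf5High and Myf5Low libraries of a sex carry the same pool numbers, 1 and 2; the labels do not state that they came from the same mice.

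Gene totals were 3140361 to 4238427 counts per library. Before TMM normalisation, 3 counts thus corresponded to 0.708 to 0.955 CPM (the count scaled to the size of the library). Levels in CPM given below are TMM-normalised, so on their scale this floor shifts with each library's TMM factor (0.876 to 1.11). Gm42418, a non-coding gene that is no member, took 20.1% to 28.8% of gene counts, and mitochondrially encoded genes took 0.694% to 2.82%. Pax7 stood at 1001 to 1498 CPM across the 8 libraries. Myf5 was higher in Myf5High (log2 fold change 1.19, SE 0.27, edgeR's quasi-likelihood test, Benjamini-Hochberg adjusted p = 0.028). At 39.5 CPM, however, Myf5 in male Myf5High replicate 2 lay below male Myf5Low replicate 1 (41.9 CPM) and female Myf5Low replicate 2 (49.9).

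A ribosome holds one copy of most of its proteins, and the genes for them lie scattered over the chromosomes. Their mRNAs mostly start at a run of pyrimidines, the 5′ terminal oligopyrimidine (TOP) motif, through which the kinase mTORC1 controls how much they are translated. Resting muscle stem cells make little protein, and they raise ribosome production when they are activated. Ribosomal protein genes have many processed pseudogenes, copies of the spliced mRNA set back into the genome, and reads that fit a gene and its copies equally well may be lost or split in counting.

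The start of transcription is shown for the 6 genes that differed between the sexes, and for Rpl14, a large subunit gene whose log2 fold change between the sexes was near 0, to set their pyrimidine runs side by side. Each sequence runs 5′ to 3′ from 40 bases before the annotated start through the first 20 bases of the transcript, and comes from the RefSeq promoter table on GRCm38.p6. Where that table lists several starts the most upstream one was taken. Capitals mark the longest run of C and T near the start.
Rps18, chr17:33955646-33955705, minus strand: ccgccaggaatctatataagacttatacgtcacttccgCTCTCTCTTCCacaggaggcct
Rps21, chr2:180257339-180257398, plus strand: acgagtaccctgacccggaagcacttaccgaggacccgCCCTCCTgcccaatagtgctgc
Rpl12, chr2:32961672-32961731, plus strand: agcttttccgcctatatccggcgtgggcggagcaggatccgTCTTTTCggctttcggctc
Rps19, chr7:24884552-24884611, plus strand: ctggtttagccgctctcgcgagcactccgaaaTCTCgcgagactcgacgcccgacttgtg
Rpl34, chr3:130730379-130730438, minus strand: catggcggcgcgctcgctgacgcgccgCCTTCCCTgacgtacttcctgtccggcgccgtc
Rps24, chr14:24490638-24490697, plus strand: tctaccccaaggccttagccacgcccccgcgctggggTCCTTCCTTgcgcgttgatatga
Rpl14, chr9:120571477-120571536, plus strand: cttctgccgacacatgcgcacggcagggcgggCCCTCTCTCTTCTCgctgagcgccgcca

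The run spanned 11 bases in Rps18, 9 in Rps24, 8 in Rpl34, 7 in Rps21 and Rpl12, and 4 in Rps19. In Rpl14 it spanned 14 bases, more than in any of the 6 genes that differed. With the first base of the transcript as 1, the run began at -2 in Rps18 and Rps21 and at -3 in Rps24. It began at -8 in Rps19 and Rpl14, at -13 in Rpl34 and at 2 in Rpl12. The marked runs of Rps19 and Rpl34 thus ended before the annotated start and lay outside the transcript. The promoter table held 77 starts of 65 members. A C followed by 4 bases that are each C or T, on the sense strand between 10 bases before and 20 bases after the start, occurred at 47 of these starts (61.0%), against 35.8% of all 32851 starts in the table, and at 5 of the 6 shown for genes that differed. CCGGAAG, the core to which GABP and other ETS factors bind, occurred on either strand between 250 bases before and 50 bases after the start in 26 of the 77 (33.8%), against 8.86% of all starts, and in 2 of the 6. It can be read in Rps21 among the bases before the run. The pyrimidine word and CCGGAAG shared bases at 1 of the 77 starts (1.30%), against 1.07% of all starts. These matches describe letters in a window and not sites in use.

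Counted levels differed widely among the members. Per kilobase of transcript, the highest mean over the 8 libraries was that of Rplp1, a stalk protein, at 4561 CPM per kb. Rps14, a protein of the small subunit platform, followed at 3146, and Rpl26, a large subunit protein near the exit tunnel, at 2812. At the other end of the tested genes stood Rps4x at 2.14 CPM per kb, Rpl10 at 2.75 and Rpl28 at 3.28. The highest and lowest tested members were 2129-fold apart. The 11 members with a mean of at least 1000 CPM held 70.3% of all members' CPM, and Rps20, with 3702 CPM, held 12.7% by itself. The order per kilobase depends on the transcript taken for each gene: that of Rps20 has 3706 bases, which gave 999 CPM per kb. At the same time 28 of the 85 members had a mean under 10 CPM.

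The 10 members that were not tested had at most 18 counts in any library. They include genes for proteins that every ribosome carries: Rps6, the small subunit protein phosphorylated by S6 kinase, had 0 counts in 5 libraries, 3 and 4 in the libraries of female Myf5High, and 18 in male Myf5Low replicate 1. Rpl24 had 0 counts in 5 libraries and at most 4. Rpl27, Rpl35, Rpl10a and Rps29 were as low, with a mean under 1 CPM each. Rpl10l and Rpl39l are paralogs known mainly from testis, and Rpl3l is known from striated muscle. Rpl39l had 0 counts in all 8 libraries, which allows up to 0.708 to 0.955 CPM for each before TMM normalisation, and Rpl3l had 0 to 15 counts. Because genes used in every cell were near 0, a low count of a member is not read as low expression here.

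To see which members could lose reads to copies, each member's principal transcript was broken into words of 50 bases, and each word was looked up in the transcripts of all other annotated genes. Of the 85 members, 81 shared at least 1 word with another gene, and a median of 9 other genes did so per member. Rpl7a, a large subunit protein, shared words with 123 other genes and Rps2 with 71. The median member had 46.4% of its words to itself, 48 members had under 50%, and Rps27 had 1.35%. The rank correlation between this share and the level per kilobase was 0.264 over the 85 members, as a description across genes that share the same libraries. Rpl13 with 19.7% of its words to itself had 2727 CPM per kb, while Rps29 with 64.2% had 1.44; these 2 were picked after their values were seen. The handling of reads with several best positions is not given in the sources used here, and the table lists 0 reads in its row for non-unique alignments in every library. By position, 15 of the 85 members overlap an exon of another counted gene, among them Rps18 with Vps52 and Rpl12 with Lrsam1, both on the opposite strand, over 6.37% and 1.56% of their exonic bases.

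**Figure D1:**
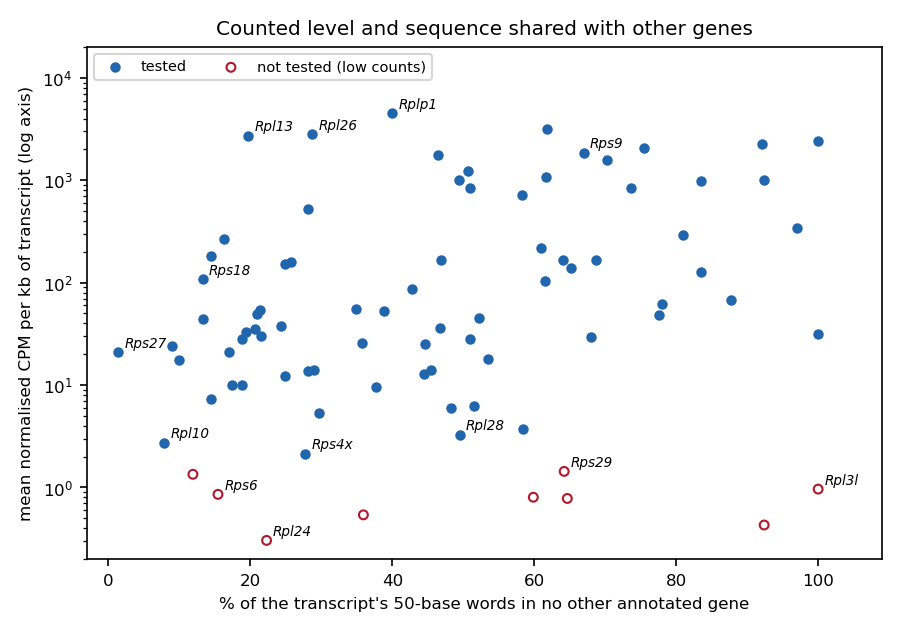
Mean level of each member over the 8 libraries in normalised CPM per kilobase of transcript (log axis) against the percentage of its 50-base words found in no other annotated gene. Filled points are tested members, open circles are members with too few counts, and Rpl39l, at 0, is left out. Members with a small share of words to themselves are found both near 2727 CPM per kb (Rpl13) and near 2.75 (Rpl10).

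The share of gene counts that fell on the members was 3.31% and 3.43% for Myf5High and 3.47% and 3.13% for Myf5Low in females. The males had 2.08% and 2.35% for Myf5High and 3.23% and 2.36% for Myf5Low. Male Myf5Low replicate 1 thus lay inside the female range, and the other 3 male libraries lay below every female library. The 95% Wilson intervals extended at most 0.0195 percentage points to each side and cover counting error only. The female libraries averaged 3.33% ± 0.15 (SD, n = 4 libraries, 2 of each fraction) and the male libraries 2.50% ± 0.50. By fraction the averages were 2.79% ± 0.68 in Myf5High and 3.05% ± 0.48 in Myf5Low, a difference smaller than either SD. In bulk libraries, fewer cells of a kind and less RNA per cell cannot be told apart.

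**Figure D2:**
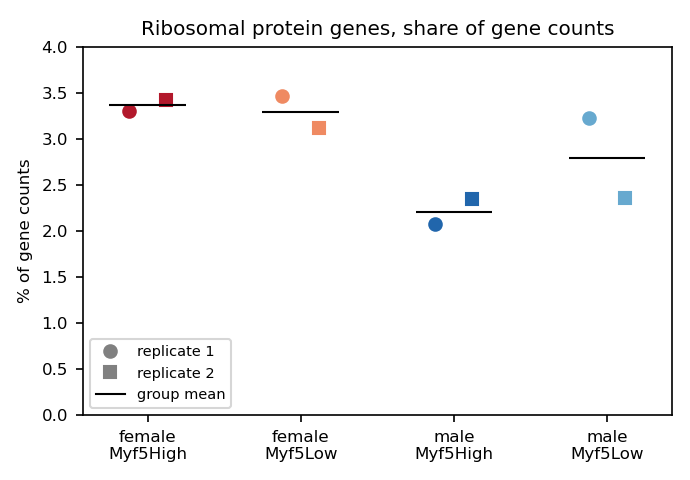
Share of gene counts assigned to the 85 members, in percent, in each of the 8 libraries by group; circles are replicate 1, squares replicate 2 and lines group means. The 4 female libraries lie between 3.13% and 3.47%, and 1 of the 4 male libraries, Myf5Low replicate 1 at 3.23%, reaches that range.

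The first comparison of the design was Myf5High against Myf5Low. No ribosomal protein gene passed the test between the fractions. Here edgeR's quasi-likelihood test called 0 of the 75 tested members at an adjusted p under 0.05, where 1.2% of all 11730 genes were called. DESeq2 called 0 members as well, among 234 genes. At an unadjusted p under 0.05 in edgeR there were 2 members, against 9.36% of all genes. The median log2 fold change over the members was -0.11, against -0.02 over all genes, with 28 members higher and 47 lower in Myf5High. The members' values ranged from -0.97 to 0.87. Members of the small subunit had a median of -0.18, those of the large subunit of -0.05 and the stalk of 0.11.

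The members that came closest to a difference between the fractions were Rps24 on the lower side and Rpl5 on the higher side. Rps24 stood at 681 and 491 CPM in female Myf5High and 580 and 600.5 in female Myf5Low, against 284 and 215 in the males' Myf5High and 570 and 371 in their Myf5Low libraries. Its log2 fold change was -0.46 (SE 0.19, adjusted p = 0.42), and the fractions overlapped through the female libraries. Rpl5, which with Rpl11 and 5S rRNA can bind the p53 regulator Mdm2, had 12.3 and 18.8 CPM in female Myf5High and 18.1 and 12.2 in female Myf5Low, against 17.8 and 13.2 in the males' Myf5High and 3.81 and 5.73 in their Myf5Low libraries. Its log2 fold change was 0.87 (SE 0.38, adjusted p = 0.46), and it was low in the male Myf5Low libraries alone. The next by p on the higher side were Rps23, a protein of the decoding centre, at 0.83 (SE 0.59), and Rpl23, at 0.21 (SE 0.20). Rpl23 was at 0.008 without male Myf5High replicate 1 and at 0.37 without male Myf5High replicate 2. On the lower side they were Rpl7a at -0.77 (SE 0.43) and Rps27rt, an intronless copy of Rps27, at -0.91 (SE 0.52). Rps27rt was at -0.11 without male Myf5Low replicate 1. Rpl7a and Rpl35a were the only 2 tested members whose Myf5High libraries all lay on one side of the Myf5Low libraries, below them in both cases (2.67% of members; 4.58% of all genes were separated in either direction). Rpl35a is named after its values were seen. Rpl7a ran from 4.93 to 7.44 CPM in Myf5High and from 10.8 to 12.4 in Myf5Low.

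Within one sex the same held. In females 0 of 75 members were called between the fractions (0.332% of all genes; 1 member at an unadjusted p under 0.05, against 7.36% of all genes), and in males 0 of 75 (0.171%; 4 members, against 6.67%). DESeq2 called 0 members in each as well, among 111 genes in females and 80 in males. The members' median was -0.07 in females and -0.13 in males on the log2 scale, with -0.01 over all genes in each.

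Markers of other cells moved with the fractions. Of 8 markers of committed muscle cells 6 were lower in Myf5High (median -1.27), and 2 of them fell, Myog and Mymk. Myog, a transcription factor of differentiating muscle cells, was at 0 to 1.27 CPM in Myf5High and 93.7 to 532.5 in Myf5Low (log2 fold change -8.42, SE 0.50, adjusted p = 2.24e-08). Mymk, which drives the fusion of muscle cells, was at 0 in all 4 Myf5High libraries and at 4.30 to 67.7 CPM in Myf5Low. The summed level of the 8 genes overlapped all the same, at 58.3 to 917 CPM against 308 to 931. Of 6 mural markers 5 were lower in Myf5High, and Acta2 fell (-1.73, SE 0.23, adjusted p = 0.00039); their sum did not overlap, at 143 to 185 CPM in Myf5High and 247 to 543 in Myf5Low. Of 6 tested immune markers 5 were lower, and C1qa fell (-2.13, SE 0.39, adjusted p = 0.0077), with sums of 20.7 to 56.9 against 48.9 to 93.9 CPM. Of 5 tested fibro-adipogenic markers 4 were higher, and Dpt rose (1.05, SE 0.18, adjusted p = 0.0033), with sums of 467 to 994 against 316 to 497 CPM. No endothelial or glial marker was called (0 of 7 and 0 of 5 tested; medians -0.40 and -0.82). Of 10 genes known to respond to tissue dissociation 10 were above 0 in Myf5High over Myf5Low (median 0.35) and 0 were called, with Dusp1 at 0.54 (SE 0.19, adjusted p = 0.27) and Fos at 0.54 (SE 0.22, adjusted p = 0.41), and sums of 20510 to 34230 against 19620 to 26110 CPM. Of the 10 muscle stem cell markers 6 were above 0 in Myf5High over Myf5Low and 4 below (median 0.06). The 2 that rose were Calcr (0.89, SE 0.21, adjusted p = 0.039) and Myf5, on whose reporter the fractions were sorted. Of the 4 below 0, Myod1 was the largest, at -0.97 (SE 0.26, adjusted p = 0.10). The part of these genes in the members' values between the fractions was not tested.

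The second comparison was female against male. Here 6 members rose in females over males and none fell: Rps18, Rps21, Rpl12, Rps19, Rpl34 and Rps24. That is 8.0% of the 75 tested members, where 1.65% of all genes were called in either direction, 0.733% were called higher in females and 0.921% lower. At an unadjusted p under 0.05 there were 37 members, all higher in females, or 49.3%, against 13.9% of all genes in either direction and 7.05% in that one. The log2 fold change was above 0 for 65 of the 75 members, with a median of 0.56, while 48.7% of all genes were above 0 with a median of -0.02. Most members thus lay on the female side, including members that did not pass. In 22 members (29.3%) all 4 female libraries lay above all 4 male libraries, and in 0 members the reverse, against 3.59% and 3.5% of all genes.

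**Figure D3:**
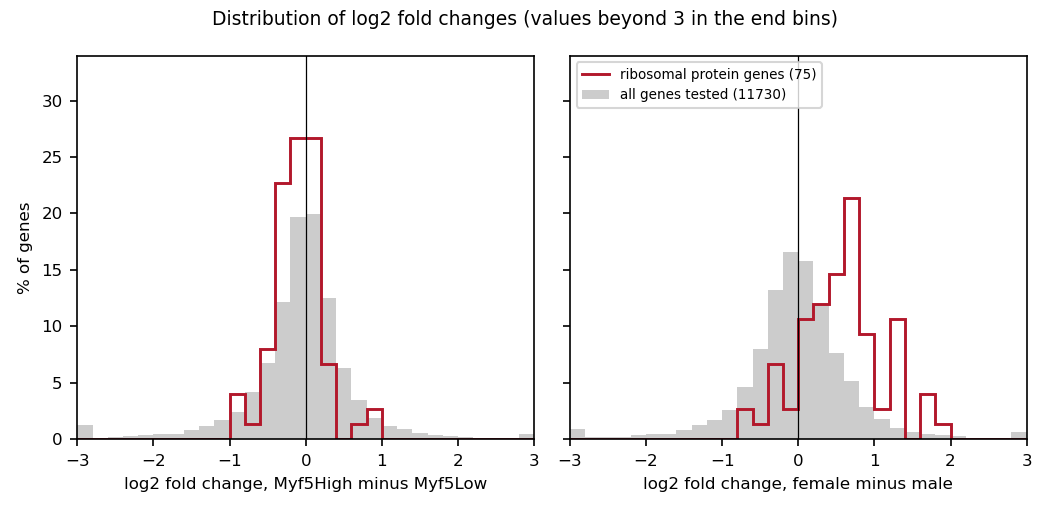
Distribution of log2 fold changes in bins of 0.2, as a percentage of the 75 tested members (red outline) and of all 11730 genes tested (grey bars), for Myf5High minus Myf5Low (left) and female minus male (right). The members are centred at -0.11 on the left and at 0.56 on the right, with all genes centred at -0.02 in both.

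Of the 4 small subunit genes that rose, Rps18 encodes a protein of the subunit's head. It stood at 82.1 and 88.6 CPM in female Myf5High and 71.4 and 96.0 in female Myf5Low, against 31.2 and 24.3 in the males' Myf5High and 49.1 and 40.1 in their Myf5Low libraries. Every female library was above every male library, and the log2 fold change was 1.26 (SE 0.22, adjusted p = 0.0046). Rps18 has 13.3% of its 50-base words to itself and shares the others with copies, so its level is uncertain.

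Rps21 encodes a small protein of the same subunit. It had 495 and 379 CPM in female Myf5High and 392.5 and 396 in female Myf5Low, against 182.5 and 198 in the males' Myf5High and 308.5 and 270 in their Myf5Low libraries. The sexes did not overlap, and the male Myf5High libraries were the lowest (log2 fold change 0.82, SE 0.17, adjusted p = 0.018). Rps19, whose human counterpart is mutated in Diamond-Blackfan anaemia, had 1559 and 1663 CPM in female Myf5High and 1499 and 1071 in female Myf5Low, against 769 and 732.5 in the males' Myf5High and 552 and 1015 in their Myf5Low libraries. Its lowest female library and its highest male library, both Myf5Low replicate 2, nearly touched (log2 fold change 0.91, SE 0.20, adjusted p = 0.028). Rps24, another Diamond-Blackfan gene in humans, has its values given above. Its sexes overlapped, because male Myf5Low replicate 1 at 570 CPM was above female Myf5High replicate 2 at 491, and its log2 fold change was 0.78 (SE 0.19, adjusted p = 0.049).

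Of the large subunit, Rpl12 and Rpl34 rose. Rpl12 encodes a protein at the base of the stalk, and had 52.1 and 61.1 CPM in female Myf5High and 44.2 and 40.7 in female Myf5Low, against 23.3 and 8.88 in the males' Myf5High and 23.8 and 26.0 in their Myf5Low libraries. The libraries of the sexes were apart in both fractions, and the log2 fold change over both was 1.28 (SE 0.28, adjusted p = 0.027). Neither fraction passed by itself in edgeR's test, with 1.79 in Myf5High (SE 0.41, adjusted p = 0.059) and 0.77 in Myf5Low (SE 0.40, adjusted p = 0.73). Rpl34 had 664 and 675 CPM in female Myf5High and 525 and 591.5 in female Myf5Low, against 453 and 287 in the males' Myf5High and 286 and 405 in their Myf5Low libraries. Its female libraries were all above its male ones (log2 fold change 0.77, SE 0.19, adjusted p = 0.049).

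The number of calls changed with the libraries and the method used, among the members and over all genes. Of the members 6 were called, and of all 11730 genes 194. Without female Myf5High replicate 1 these became 1 and 99, without female Myf5High replicate 2 they were 2 and 114, and without female Myf5Low replicate 2 they were 2 and 82. Without male Myf5High replicate 1 there were 19 members among 558 genes called. DESeq2 called 18 members among 371 genes, and edgeR with every gene kept that had any count 18 among 477 of 15888. A fit corrected for GC content and transcript length, added after the data were seen, called 2 among 183. Rps18 passed in each of these fits and with each library left out, and the median over the members was between 0.48 and 0.57 in them. Rpl12 was called without either male Myf5High library and lost its call without any one of the other 6 libraries (adjusted p from 0.057 to 0.098). Rpl34 kept its call only without male Myf5High replicate 1 or male Myf5Low replicate 2, and Rps24 only without male Myf5High replicate 1 or male Myf5Low replicate 1. Rps19 lost it without either female Myf5High library, female Myf5Low replicate 1 or male Myf5Low replicate 1 (0.081 to 0.126), and Rps21 without female Myf5High replicate 1, female Myf5Low replicate 2 or male Myf5Low replicate 2 (0.067 to 0.17). With the GC and length correction Rps18 and Rpl12 were called, and Rps19 was at an adjusted p of 0.051, Rps24 at 0.072, Rpl34 at 0.10 and Rps21 at 0.12. Rpl34 and Rps24 were not called with RLE scaling. With the counts of the 2 fractions summed by pool number, which leaves 2 sums per sex, 8 members were called among 195 genes, and Rps24 was not among them (log2 fold change 0.675, adjusted p = 0.105).

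**Figure D4:**
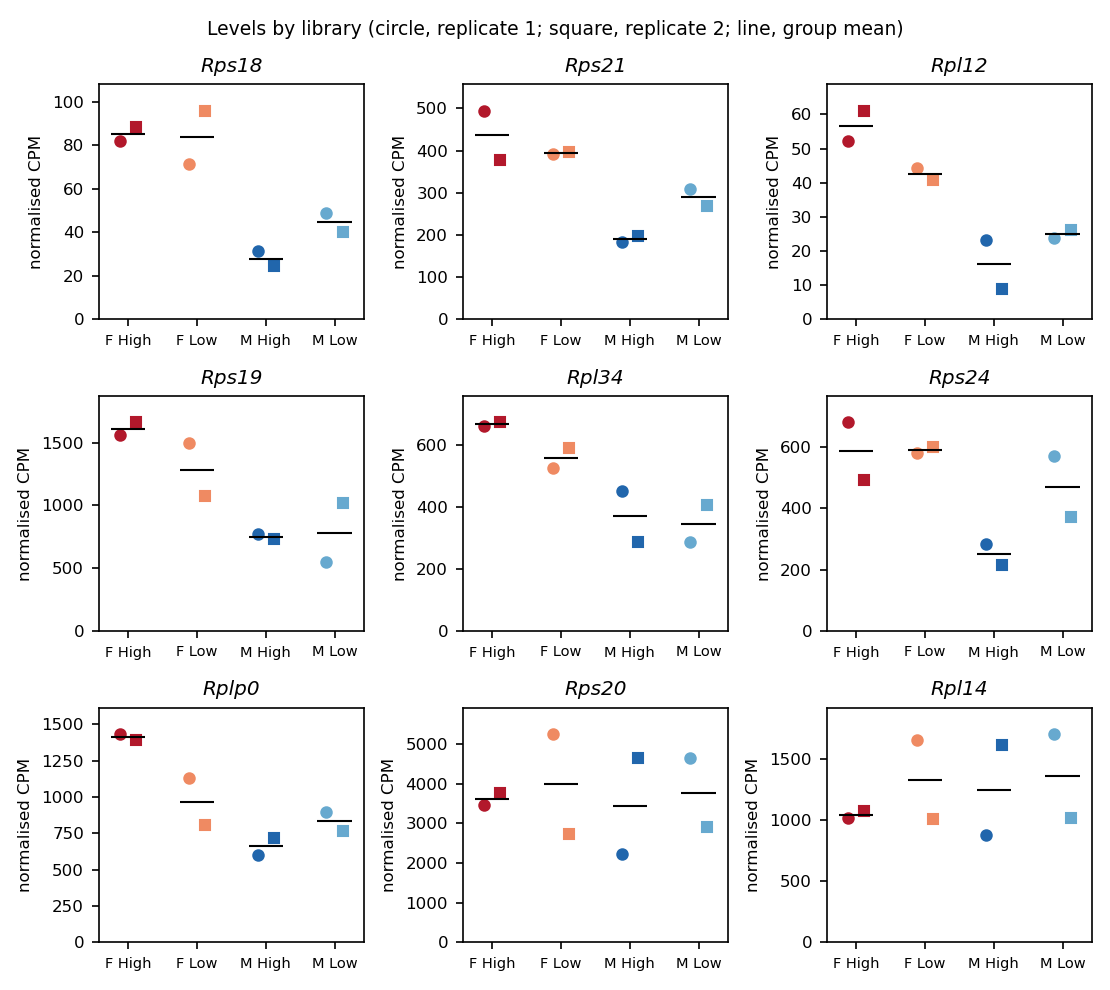
Normalised CPM (linear axes from 0) of the 6 members called between the sexes, and of Rplp0, Rps20 and Rpl14, in each library; F and M are female and male, High and Low the Myf5 fractions, circles replicate 1, squares replicate 2, and lines group means. Rps18 female libraries lie between 71.4 and 96.0 and male ones between 24.3 and 49.1, while Rps20 and Rpl14 spread as widely within a sex as between the sexes.

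The stalk binds the elongation factors that drive each step of translation. Rplp0, its anchor on the large subunit, had 1437 and 1393 CPM in female Myf5High and 1133 and 806 in female Myf5Low, against 604 and 718 in the males' Myf5High and 896.5 and 769 in their Myf5Low libraries. It was high in female Myf5High, and its Myf5Low libraries overlapped between the sexes (log2 fold change 0.66, SE 0.18, adjusted p = 0.072). Rplp2 had 29.1 and 28.5 CPM in female Myf5High and 22.5 and 48.7 in female Myf5Low, against 25.2 and 11.5 in the males' Myf5High and 8.74 and 10.3 in their Myf5Low libraries. One male library, Myf5High replicate 1, lay within the female range (1.27, SE 0.33, adjusted p = 0.062). Rplp1 was at 2115 to 2800 CPM in the female libraries and 1533 to 2703 in the male ones (0.41, SE 0.20, adjusted p = 0.37). None of the 3 stalk genes passed edgeR's test over all genes, while DESeq2 called Rplp0 and Rplp2. Rplp2 was also called without male Myf5High replicate 1 (1.61) or without female Myf5Low replicate 1 (1.49).

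Of the 30 tested small subunit genes 27 had a log2 fold change above 0 (median 0.65, 4 called), and of the 40 tested large subunit genes 34 (median 0.54, 2 called). The 2 genes that are not structural had 0.18 (Rpl7l1, SE 0.20) and -0.27 (Rps19bp1, SE 0.27). By level, the 11 with a mean of at least 1000 CPM had a median of 0.27 with 10 above 0, and the 17 from 100 to 1000 CPM had 0.64 with 17 above 0. Between 10 and 100 CPM, 26 of 29 were above 0 with a median of 0.64, and under 10 CPM, 12 of 18 with 0.41. Differences between these ranges were not tested. By shared sequence, members with at least 50% of their words to themselves had a median of 0.60 (28 of 31 above 0), and the others 0.53 (37 of 44). The 61 members that overlap no exon of another counted gene had a median of 0.60, with 53 above 0.

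Members on the lower side were few and none passed. Rps27, which carries a zinc finger, had 3.56 to 7.38 CPM in the female libraries and 5.38 to 15.3 in the male ones (log2 fold change -0.79, SE 0.53, adjusted p = 0.54). The value for Rps27 was -0.32 without male Myf5Low replicate 2, its highest library. Rps27rt had 2.59 to 12.4 against 3.82 to 19.3 CPM (-0.48, SE 0.52). Without male Myf5Low replicate 1, its highest library, the value for Rps27rt turned to 0.30. Rps27 and Rps27rt share most of their words with other annotated genes.

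Rps20 and Rpl14, the first a small subunit head protein and the second a large subunit protein, were abundant and overlapped between the sexes. Rps20 had 3459 and 3760 CPM in female Myf5High and 5258 and 2730 in female Myf5Low, against 2226 and 4641 in the males' Myf5High and 4635 and 2906 in their Myf5Low libraries. Its log2 fold change was 0.08 (SE 0.25). Rpl14 had 1014 and 1071 CPM in female Myf5High and 1653 and 1007 in female Myf5Low, against 880 and 1611 in the males' Myf5High and 1708 and 1020 in their Myf5Low libraries, with a log2 fold change of -0.15 (SE 0.23). Both were high in the same 3 libraries, which were female Myf5Low replicate 1, male Myf5High replicate 2 and male Myf5Low replicate 1. These 2 genes were picked for description after their values were seen.

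Over the 28 members with a mean of at least 100 CPM, the deviations from each gene's mean over the 8 libraries fell mostly along 1 axis. The first principal component held 58.2% of the variance, with scores of 1.03 to 1.83 in the female libraries and -2.003 to -0.512 in the male ones. Male Myf5Low replicate 1 was the male library nearest to the females. The second component held 22.7% and was highest in male Myf5Low replicate 1 (1.54), male Myf5High replicate 2 (1.01) and female Myf5Low replicate 1 (0.88), and lowest in male Myf5High replicate 1 (-1.35). The libraries of one group fell on opposite sides of this second component in 3 of the 4 groups. The median deviation of the 28 genes was -0.42 in male Myf5High replicate 1 and 0.33 in female Myf5Low replicate 1, the 2 ends of the range.

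**Figure D5:**
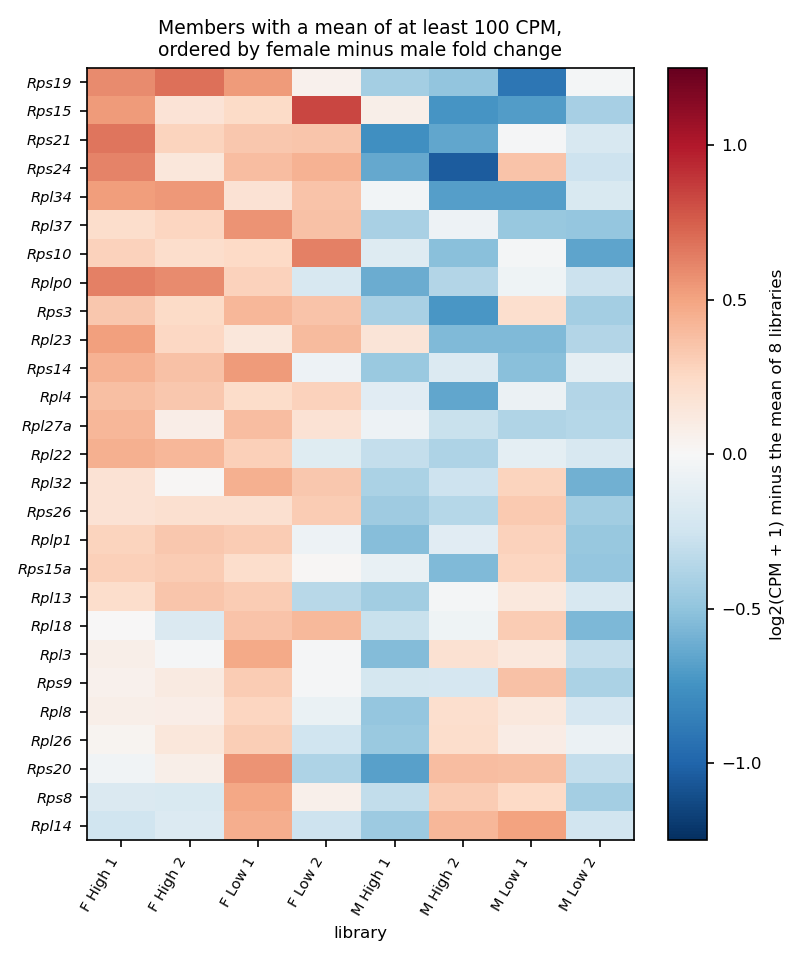
Deviation of log2(CPM + 1) from the mean of the 8 libraries for all but 1 of the 28 members with a mean of at least 100 CPM, one row per gene ordered by the female minus male log2 fold change and one column per library; red is above and blue below the gene's mean. Upper rows are mostly red in the 4 female columns, and the lowest rows, such as Rps20 and Rpl14, are red in female Myf5Low 1, male Myf5High 2 and male Myf5Low 1.

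Each fraction was also compared between the sexes by itself. In Myf5High, Rps18 and Rps21 rose in females (2 of 75 members, 2.67%, against 0.512% of all genes in either direction and 0.298% in that one). Rps18 differed by 1.62 on the log2 scale (SE 0.31, adjusted p = 0.026) and Rps21 by 1.20 (SE 0.25, adjusted p = 0.037). Without either female Myf5High library, or without male Myf5High replicate 2, 0 members were called, while the calls over all genes went from 60 to 24, 32 and 105. There were 7 members among 93 genes without male Myf5Low replicate 1, 4 among 78 without male Myf5Low replicate 2 and 8 among 210 without male Myf5High replicate 1. Rps18 was called without male Myf5High replicate 1 (adjusted p = 0.019), but Rps21 was not (0.058). Rps21 thus lost its call without any one of the Myf5High libraries, and also with the GC and length correction (0.0895). In Myf5Low, 0 of 75 were called by edgeR (0.205% of all genes), with 20 at an unadjusted p under 0.05, all higher in females (3.32% of all genes in that direction), and 1 called by DESeq2 among 64 genes. There, 2 were called without male Myf5High replicate 1 and 2 without male Myf5High replicate 2, where the calls over all genes went from 24 to 54 and 55. The medians were 0.51 in Myf5High and 0.46 in Myf5Low, and 61 of the 75 members were above 0 in both fractions, 7 below 0 in both and 7 of opposite sign.

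Whether the sex difference itself differed between the fractions was tested as an interaction. None of the members, and no other gene, was called in the main edgeR fit (0% of 11730 genes), and DESeq2 called 0 members among 2 genes. At an unadjusted p under 0.05 there were 6 members, 8.0% against 4.54% of all genes. These were Rplp0, Rps24, Rpl22l1, Rpl30, Rps21 and Rpl5, named after their values were seen. The first 5 had the larger sex difference in Myf5High, with Rplp0 at 1.10 in Myf5High and 0.22 in Myf5Low. Rpl5 had 0.01 in Myf5High and 1.66 in Myf5Low.

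Some members have a paralog that can take their place in the ribosome. Rpl22, which is dispensable in mice, had 853 to 1285 CPM in the female libraries and 726 to 872 in the male ones (log2 fold change 0.51, SE 0.17, adjusted p = 0.17). Its paralog Rpl22l1 had 45.4 to 87.3 against 15.8 to 41.8 CPM (0.78, SE 0.27, adjusted p = 0.18), so that both lay on the same side and neither passed. Rpl22l1 was called without male Myf5High replicate 1, at 1.215, and DESeq2 called Rpl22. Rps27l, a target of p53 that resembles Rps27, had 21.0 to 40.9 against 16.8 to 22.5 CPM (0.60, SE 0.28, adjusted p = 0.34), and lay on the opposite side from Rps27. Rpl7, beside the biogenesis factor Rpl7l1, had 0.64 (SE 0.26, adjusted p = 0.27). Rpl3, which forms part of the peptidyl transferase centre, had 240 to 337 CPM in females and 166 to 276 in males (0.24, SE 0.20). The value for Rpl3 was 0.081 without male Myf5High replicate 1 and 0.451 without male Myf5High replicate 2. The muscle paralog of Rpl3, Rpl3l, was not tested. Rpl36al, the autosomal copy of Rpl36a, had 7.38 to 10.7 against 4.78 to 15.2 CPM (-0.28, SE 0.46; 0.24 without male Myf5Low replicate 1).

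The 4 X-linked members did not pass the test between the sexes either. Rpl39, a short protein that lines the exit tunnel, had 112 and 71.5 CPM in female Myf5High and 73.9 and 122 in female Myf5Low, against 96.5 and 45.7 in the males' Myf5High and 49.5 and 47.8 in their Myf5Low libraries. Male Myf5High replicate 1 alone among the males reached the female range (log2 fold change 0.69, SE 0.26, adjusted p = 0.22), and without that library Rpl39 was called with a log2 fold change of 1.01. Rps4x, Rpl10 and Rpl36a had means of 2.09, 2.19 and 3.55 CPM, and their fold changes on the log2 scale, 1.26 (SE 1.05), 1.07 (SE 1.15) and 1.70 (SE 0.98), could not be told from 0 at this depth. The most abundant members per length were all autosomal: beside Rplp1, Rps14 had 1733 to 2632 CPM in females and 1266 to 1677 in males (0.64, SE 0.19, adjusted p = 0.11; called by DESeq2), and Rpl26 had 1232 to 1806 against 1056 to 1700 (0.11, SE 0.20; -0.056 without female Myf5Low replicate 1 and -0.043 without male Myf5High replicate 1). Rpl28, the lowest tested member per length after Rps4x and Rpl10, had 0.647 to 3.31 against 2.15 to 5.38 CPM (-0.77, SE 0.97).

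Other genes of translation were taken from lists, and whether these lists differ from the members was not tested. Of the 9 genes on the elongation factor list, which also holds Tpt1 and Eef1e1, 9 were above 0 in females over males with a median of 0.33, and 1 rose: Eif5a, which helps the ribosome through proline stretches, with 67.3 to 123 CPM in the female libraries and 27.8 to 50.9 in the male ones (log2 fold change 1.14, SE 0.23, adjusted p = 0.013). Of 38 initiation factor genes 31 were above 0 (median 0.25) and 0 were called. The largest differences among them were those of Eif2s3x, an X-linked subunit of eIF2, at 1.56 (SE 0.45, adjusted p = 0.10) and Eif2b1 at 1.46 (SE 0.84). Rack1, a ribosomal protein under another symbol, had 1911 to 2316 CPM in females and 1255 to 1765 in males, without overlap (0.62, SE 0.18, adjusted p = 0.090). Rpsa had 0.05 (SE 0.25), which is also the median of these 3 tested genes, and Fau -0.53 (SE 0.70).

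Of 42 genes of ribosome biogenesis 37 were above 0 (median 0.31, 0 called), with Rrs1 at 1.00 (SE 0.31, adjusted p = 0.12) and Nob1 at 0.99 (SE 0.41) as the largest. Of 14 genes of RNA polymerase I and its factors 11 were above 0 (median 0.22, 0 called), with Polr1e at 0.90 (SE 0.59). Of 22 mTORC1 and Myc regulators 14 were above 0 (median 0.37, 0 called), and Myc itself was at 3.88 to 11.2 CPM in females and 1.32 to 6.05 in males (1.69, SE 0.67, adjusted p = 0.25). The 3 tested host genes of small nucleolar RNAs had 0 called. One of them is Rack1, whose value is given above, and the others were Snhg12 at 0.79 (SE 0.22, adjusted p = 0.073) and Snhg6 at 0.56 (SE 0.93).

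Mitochondrial ribosomal protein genes, which build a separate ribosome, had 45 of 73 above 0 and a median of 0.19, with 0 called. Among 11 p53 targets that respond to ribosomal stress 6 were above 0 (median 0.01). Of these Bbc3, a promoter of cell death, rose, with 23.6 to 47.4 CPM in females and 2.69 to 15.5 in males (1.99, SE 0.42, adjusted p = 0.017), and Bax stood at -0.79 (SE 0.32, adjusted p = 0.26). Between Myf5High and Myf5Low 0 genes of any of these lists were called, with medians from -0.45 for the 3 tested ribosomal proteins under other symbols to 0.07 for the small nucleolar RNA hosts.

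Of the markers of other cell types, 1 gene was called between the sexes. All 7 endothelial markers were lower in females in log2 fold change (median -0.72, 0 called), with a summed level of 197 to 316 CPM in the female libraries and 261 to 539 in the male ones. All 5 tested fibro-adipogenic markers were lower (median -0.51, 0 called), summed at 316 to 528 against 382 to 994 CPM, and all 5 tested glial markers (median -0.77, 0 called), summed at 47.6 to 112 against 54.0 to 156. In each of these lists the sums overlapped between the sexes, and no listed gene was at 0 in all 8 libraries. Of 8 markers of committed muscle cells 3 were above 0, and Myh3 fell in females (-5.35, SE 1.21, adjusted p = 0.028). Myh3 was at 175 CPM in male Myf5High replicate 1 and 100.1 in male Myf5Low replicate 2, and at most 6.12 elsewhere. Both of these libraries were among the 3 with the lowest share of counts on the members. The other one, male Myf5High replicate 2 with a share of 2.35%, had Myh3 at 1.32 CPM. A link between Myh3 and the share was not tested. Of 10 muscle stem cell markers 8 were above 0 (median 0.20, 0 called).

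Of the 10 genes of the dissociation response 7 were above 0 in females over males, with a median of 0.20. Dusp1 rose, with 346 to 785 CPM in females and 226 to 357 in males (0.98, SE 0.19, adjusted p = 0.011). The summed level of the 10 overlapped, at 19620 to 34230 against 20510 to 34160 CPM. Immune markers were 3 above and 3 below 0, summed at 25.2 to 93.9 against 20.7 to 85.1 CPM, and 4 of 6 mural markers were above 0, summed at 143 to 543 against 148 to 483. The part of these markers in the difference between the sexes was not tested.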

How the data were processed

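The deposited table holds whole-number read counts per Ensembl gene, which the authors made with HTSeq on GRCm38, per the submitters' processing notes. The aligner, the annotation release and the strand setting are not given in the sources used here, so genes that overlap on opposite strands cannot be told apart. Identifiers of 27441 of the 27554 genes matched GENCODE M21, which gave symbols and transcripts. Rows for unassigned reads were left out of library sizes; reads without a gene were 42.0% to 45.3% of the reads the table lists, and ambiguous ones 0.248% to 0.296%.

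Counts were analysed with edgeR 4.0.16 in R 4.3.3. filterByExpr (minimum count 10, minimum total 15) kept 11730 genes. After TMM scaling, glmQLFit took all 8 libraries with 1 mean for each group, and glmQLFTest gave two-sided tests of 7 contrasts. P-values were adjusted by Benjamini-Hochberg over all genes tested; called means an adjusted p under 0.05. The common biological coefficient of variation was 0.36. Levels are TMM-normalised CPM. Levels per kilobase use 1 principal transcript per gene. The fit was also run on simulated counts, and the outcome is not reported here. Intervals are 95% Wilson intervals, and they and the floor of 3 counts cover counting error only.

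The replicates are separate pools, per the labels. In the main fit Myf5High and Myf5Low libraries with one pool number were not paired, and each library counted as independent. They were treated as paired (as if from the same mice) in other fits, with the pool as a block or with summed pools. The labels do not state this pairing outright. If it holds, the main test between the sexes, with its calls, counted fractions of the same mice as separate replicates. After group means were removed, paired libraries correlated at 0.03 in females and -0.0003 in males across genes, and at -0.093 and -0.487 across the members alone. The pool was used as a block in another fit for contrasts between the fractions.

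The naming rule took members called in any contrast and the 3 of lowest p per direction in each main comparison. The latter needed a mean of at least 5 CPM. It also took paralogs, X-linked and stalk genes, and the 3 highest and lowest levels per length. Their values are given per library, as a range, or as a fold change alone. Of the other lists, called genes are named, with some of those with large fold changes. The members, the lists and the naming rule were chosen with earlier results of these data known. Other settings were RLE scaling, TMM factors without the members, DESeq2 1.42.0, no filter or a mean of 50 counts, replicate blocks, summed pools, each library left out, and, added after the data were seen, a loess correction for GC content and length and a restriction to members with at least 50% unshared words. Promoter sequences are from RefSeq, GRCm38.p6. Values of some genes are not reported here.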

Additional observations from a re-analysis of the deposited data

Results flagged for a closer look

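In 9 of 68 sets of 4 libraries (one named member, or the members' share of counts, in one sex or one fraction), a single library stood so far from the other 3 that its gap took up at least 0.832 of the whole range and passed Dixon's critical value for 4 values at the 95% level. Chance passes this value in about 1 in 20 independent sets, but these sets reuse the same 8 libraries and each joins 2 groups, so the number of sets is a description. Male Myf5High replicate 2 was the low library for Rpl12 among the males (8.88 CPM, the others 23.3 to 26.0), for Rpl22l1 among the males (15.8, the others 39.0 to 41.8) and for Rpl7a among the Myf5High libraries (4.93, the others 7.20 to 7.44). Male Myf5High replicate 1 was the high library among the males for Rpl39 (96.5 CPM, the others 45.7 to 49.5) and for Rplp2 (25.2, the others 8.74 to 11.5).

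In the females, Rps21 was high in Myf5High replicate 1 (495 CPM, the others 379 to 396), Rpl3 was high in Myf5Low replicate 1 (337, the others 240 to 254.5), and Rplp1 was low in Myf5Low replicate 2 (2115, the others 2693 to 2800). Among the Myf5Low libraries of both sexes, Rps24 was low in male replicate 2 (371 CPM, the others 570 to 600.5). Rps21 was not called between the sexes without that Myf5High library (log2 fold change 0.70), and also not without female Myf5Low replicate 2 (0.82), without male Myf5Low replicate 2 (0.775) or with the GC and length correction (0.60). No cause was tested for any of these values.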

How the results depend on the processing

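Between Myf5High and Myf5Low, over both sexes and in each sex, and in the interaction, 0 members were called under every setting run, the replicate block by pool and the block with the GC and length correction included. The median between the fractions was -0.111 and became -0.058 with the pool as a block; with 1 library left out it ran from -0.17 to -0.02.

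For female against male, 6 members among 194 genes were called. There were 18 among 371 with DESeq2, 18 among 477 with no filter on low counts, 2 among 183 with the GC and length correction, and 3 among 135 with the replicate number as a block, which pairs mice that share only a number; leaving out 1 library gave 1 to 19 members and 82 to 558 genes. In Myf5High the 2 members among 60 genes became 9 among 197 with DESeq2, 9 among 263 with no filter and 1 among 47 with the correction, and 0 to 8 among 24 to 210 with 1 library left out. In Myf5Low the 0 members among 24 genes became 1 among 64 with DESeq2, 3 among 120 with no filter, and 0 to 2 among 19 to 55 with 1 library left out. With no filter the 15888 genes that had any count were tested in place of 11730. The median of 0.56 became 0.48 with the correction and 0.49 to 0.57 with 1 library left out. Over single named members 38 calls were lost and 11 gained under the first set of settings and 5 lost under those added after the data were seen; no called member changed direction. With 1 library left out, 3 members that were not called turned in sign between the sexes: Rps27rt ran from -0.862 to 0.302, Rpl36al from -0.585 to 0.242 and Rpl26 from -0.056 to 0.302. Rpl26 was also at -0.057 with the GC and length correction. The causes were not tested.

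Without Gm42418 and mitochondrially encoded genes in the total, which shrinks the denominator, the group means of the members' share rose from 3.37% to 4.31% in female Myf5High, 3.30% to 4.45% in female Myf5Low, 2.21% to 3.10% in male Myf5High and 2.79% to 3.68% in male Myf5Low.

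The 28 members under 10 CPM rest on few counts, and the sexes are compared over 4 libraries each. If libraries with one pool number came from the same mice, those 4 are not independent. Members that share sequence with copies have uncertain levels.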

Other observations

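The 5 genes outside the members, out of 5752 at a mean of 20 CPM or more, whose levels across the 8 libraries were most alike to the summed CPM of the members were Cnnm3 (Pearson's r 0.939), Cog8 (0.933), Phc1 (0.929), Piezo2 (0.925) and Rack1 (0.925). They are the top of a ranking over libraries that also differ by sex and fraction, so the values are given as a description without a test. The summed CPM of the members itself was 33590 and 33240 in female Myf5High and 36840 and 28120 in female Myf5Low, against 21120 and 26840 in the males' Myf5High and 30390 and 23210 in their Myf5Low libraries.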
